A study of Homo sapiens with 19 samples.

Results

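Human chromosome 8 was described here through every H3K27ac peak called on it in 4 leukaemia cell lines, leaving out the stretch from 126 to 131 Mb of the GRCh38 (hg38) sequence. The peaks were chosen by the peak calls themselves, so their numbers and strengths are given as a description and no test was run on them. They came to 5617 of the 131110 H3K27ac peaks in the 4 lists. By line there were 339 peaks in HL-60 and 1586, 2280 and 1412 in Molm13, OCI-AML3 and K562, and the stretch left out held a further 18, 71, 79 and 118 peaks.

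H3K27ac, acetylation of lysine 27 on histone H3, is deposited by the acetyltransferases CBP and p300 at active promoters and active enhancers, and is lost where regulatory DNA falls silent. A peak over a transcription start site (TSS) is usually read as an active promoter, and a peak away from start sites as a candidate enhancer. Chromosome 8 is of interest in this tissue because gain of a whole copy is among the commonest numerical chromosome changes in myeloid leukaemia, and because it carries myeloid regulators such as CEBPD and LYN as well as red cell genes such as ANK1 and CA1. The number of copies of chromosome 8 in these cultures was not measured here.

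The study profiled histone marks by ChIP-seq in leukaemia lines, and repressed LTR2B retroviral elements with a catalytically dead Cas9 in some of them. HL-60 and Molm13, both from acute myeloid leukaemia (AML), were untreated. OCI-AML3, also from AML, and K562, from chronic myelogenous leukaemia, had been transduced with lentiviral dCas9-KRAB-mCherry and then with an empty sgRNA vector, and were sorted for mCherry and the BFP reporter of the second vector. All 4 grew in the same serum-supplemented medium without any drug. Each line is represented by 1 library from 1 culture, so spread between replicates is not known, and the effect of the vectors cannot be told apart from that of the line in OCI-AML3 and K562. The read depth of the libraries was not given in the sources used here, and a deeper library yields more and weaker peaks. Values are therefore set beside the same line's other chromosomes. Intervals in brackets are 95% Wilson intervals of a share, divided by the share of the genome where a relative density is given. For a ratio of shares between lists the 95% interval was taken on the log scale. All of them cover counting error only.

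Per megabase, HL-60 carried far fewer H3K27ac peaks on chromosome 8 than on any other autosome, OCI-AML3 carried more than on most of its autosomes, and Molm13 and K562 lay between them. The analysed part of chromosome 8 spans 139.8 Mb of determined sequence, or 4.77% of the genome. In HL-60 it held 1.63% of the list's peaks (1.47 to 1.82%). The share was 4.52% in Molm13 (4.31 to 4.75%), 6.08% in OCI-AML3 (5.84 to 6.33%) and 3.78% in K562 (3.60 to 3.98%). The density relative to each line's whole genome was thus 0.343 in HL-60 and 0.949, 1.28 and 0.794 in Molm13, OCI-AML3 and K562.

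HL-60 had 2.43 peaks per Mb on chromosome 8 against 7.65 on the other 21 autosomes together. The next lowest HL-60 autosome, chromosome 5, had 4.74 peaks per Mb. OCI-AML3 had 16.3 peaks per Mb on chromosome 8 against 13.1 elsewhere, and 4 of its autosomes were denser. Molm13 had 11.3 against 12.5 and K562 had 10.1 against 13.4, which ranked chromosome 8 at 8 and 4 from the lowest of the 22 autosomes in these lines. The plot of density by chromosome shows that the HL-60 value was the only chromosome 8 value outside the range of the other autosomes of its line.

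**Figure D1:**
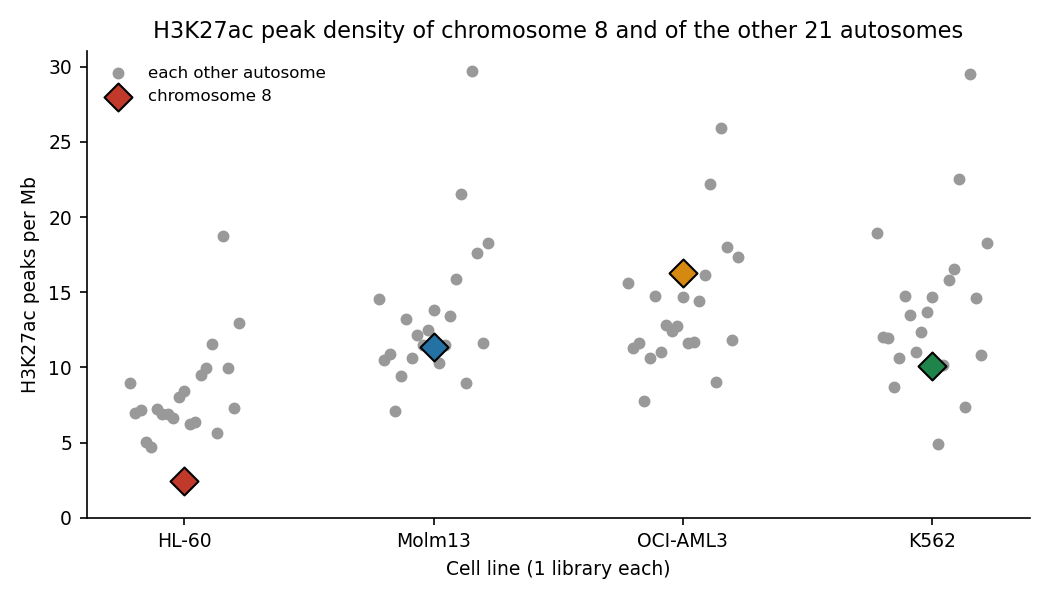
H3K27ac peaks per Mb (vertical axis) in each cell line (horizontal axis, 1 library each), with a grey point for each of the other 21 autosomes and a diamond for chromosome 8. The HL-60 diamond, at 2.43 peaks per Mb, sits below every HL-60 autosome, while the OCI-AML3 diamond, at 16.3, sits in the upper part of its range.

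Direct ratios between lists gave the same order. The chromosome 8 share of HL-60 was 0.361 times that of Molm13, whereas on the other autosomes this ratio ran from 0.849 to 1.20. Against K562 it was 0.432 times, with the other autosomes between 0.800 and 2.29. The share in OCI-AML3 was 1.34 times that in Molm13, above the 0.816 to 1.06 of the other autosomes. It was 3.72 times that in HL-60, where the other autosomes reached 1.25 at most. Against K562 the OCI-AML3 ratio was 1.61, the second highest of the 22, since 1 other autosome reached 2.37.

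Median peak strength over all peaks did not follow peak number. Fold enrichment, the ratio of ChIP signal to local background that the peak caller reports for each peak, had a chromosome 8 median of 3.93 in HL-60 (middle 50% of peaks, 3.37 to 4.85) against 3.58 on the other autosomes. In Molm13 the median was 3.39 against 3.81, and in OCI-AML3 it was 2.51 against 2.98. Both were the lowest of the 22 autosomes in their line. The K562 median was 2.83 against 2.85. HL-60 had more of its peaks within 500 bp of a start site on chromosome 8, 61.7 against 44.2%. Split by kind, its peaks at start sites had a median of 4.47 against 4.73, and those away from them 3.44 against 3.21. In Molm13 these were 5.53 against 5.45 and 3.14 against 3.44, and in OCI-AML3 3.21 against 3.65 and 2.45 against 2.76. K562 had 3.39 against 3.41 and 2.71 against 2.68. With both kinds together, peaks on chromosome 8 were a little narrower than elsewhere in every line. Median widths were 812 bp in HL-60, 1106.5 bp in Molm13 and in OCI-AML3, and 1209 bp in K562, against 892, 1142, 1296 and 1290 bp. At start sites they were 1027, 1730.5, 1880 and 2423 bp in the same order, against 1227, 1685, 1873 and 2285 bp, so narrower in HL-60 alone. Away from start sites they were 653.5, 930, 929 and 922 bp, against 701, 918, 1013 and 944 bp, so wider in Molm13 alone. By covered sequence, H3K27ac occupied 2.55 kb per Mb of chromosome 8 in HL-60 against 8.87 kb per Mb on the other autosomes, and 26.6 against 24.8 kb per Mb in OCI-AML3.

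The shortage in HL-60 ran along both arms, whereas the surplus in OCI-AML3 was larger on the long arm. With the arms divided at 45 Mb, inside the centromere, HL-60 had 2.23 peaks per Mb on the short arm and 2.52 on the long arm. Molm13 had 12.2 and 10.9, and K562 had 10.3 and 10.0. OCI-AML3 had 13.6 on the short arm and 17.6 on the long arm. The long arm makes up 68.0% of the analysed length and held 73.2% of the OCI-AML3 peaks (71.4 to 75.0%), 70.5% of the HL-60 peaks (65.4 to 75.1%), 65.4% of the Molm13 peaks (63.1 to 67.7%) and 67.4% of the K562 peaks (64.9 to 69.8%). Only the OCI-AML3 interval lay wholly above the share of length, and it no longer did so among peaks with a q-value below 0.001, where the long arm share was 68.9%. Away from start sites OCI-AML3 had 9.42 peaks per Mb on the short arm and 13.6 on the long arm.

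In 5 Mb bins, of which 29 held at least 20 peaks over the 4 lines, HL-60 had the fewest peaks of any line in 26 bins and tied for fewest in the remaining 3. On the other autosomes HL-60 was lowest in 75.3% of 527 such bins. HL-60 supplied between 1.25 and 9.43% of a chromosome 8 bin's peaks, with a median of 5.68%, against a median of 16.5% in bins elsewhere. Only 27 of the 527 bins elsewhere were at or under 9.43%. OCI-AML3 had the most peaks in 22 of the 29 bins, against 30.9% of bins elsewhere, and supplied 29.9 to 79.4% of a bin's peaks, with a median of 41.1% against 27.9%. As the plot of bins shows, the HL-60 line stayed at the bottom along the whole chromosome without a break between the arms.

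**Figure D2:**
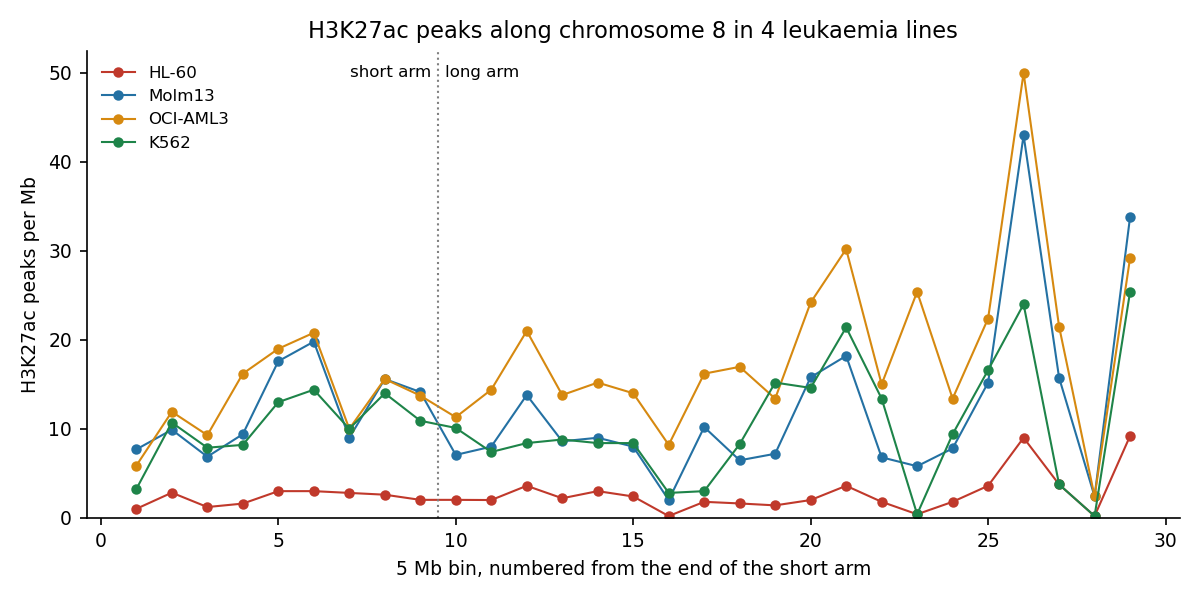
H3K27ac peaks per Mb (vertical axis) in each 5 Mb bin of chromosome 8, numbered from the end of the short arm (horizontal axis), with 1 line per cell line and a dotted line between the arms. Bins 26 and 27 border the stretch left out and hold 1 and 4 Mb of analysed sequence, and a last bin of under 0.1 Mb is not drawn. HL-60 lies lowest or level with the lowest line in every bin drawn, and OCI-AML3 stands alone in bin 23.

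The bins with the most peaks per Mb were not of equal size. They were 125 to 126 Mb, the last 0.0786 Mb of the long arm, and 140 to 145 Mb. By gene midpoint the first holds SQLE, which encodes the sterol synthesis enzyme squalene epoxidase, and TRIB1, a pseudokinase that directs degradation of C/EBP proteins. It had 9 peaks in HL-60 and 43, 50 and 24 in Molm13, OCI-AML3 and K562. At the same size of 1 Mb, the stretch from 144 to 145 Mb had 14, 51, 41 and 46 in that order. That was more in every line but OCI-AML3. The last bin had 8 peaks in all 4 lines together. The bin from 140 to 145 Mb holds 105 coding genes, and had 46, 169, 146 and 127 peaks in the same order of lines. There HL-60 reached its largest share of a bin with at least 20 peaks, 9.43%, and OCI-AML3 its smallest, 29.9%. Across all 30 bins the rank correlation between peaks per Mb and coding genes per Mb was 0.56 in HL-60 and 0.64, 0.34 and 0.66 in Molm13, OCI-AML3 and K562 (a description over bins of 1 library each, which share mappability and base composition).

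Most HL-60 peaks on chromosome 8 were at start sites, and most OCI-AML3 peaks were away from them. A peak was counted at a TSS when it came within 500 bp of the start of any annotated transcript. In HL-60 209 of 339 peaks, 61.7% (56.4 to 66.7%), were at a TSS, against 44.2% on the other autosomes. In OCI-AML3 565 of 2280, 24.8% (23.1 to 26.6%), were at a TSS, against 37.5%. Molm13 had 29.4% against 36.4% and K562 33.3% against 37.3%. The HL-60 share was the second highest of its 22 autosomes and the OCI-AML3 share the second lowest of its own.

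Expressed per megabase relative to the other autosomes, TSS peaks were at 0.442 in HL-60 and 0.734, 0.820 and 0.673 in Molm13, OCI-AML3 and K562. Distal peaks, those away from start sites, were at 0.218, 1.01, 1.50 and 0.801. The order of the lines was the same for both kinds of peak, and the gap between lines was wider for distal peaks. Chromosome 8 had 0.930 distal peaks per Mb in HL-60 and 12.3 per Mb in OCI-AML3.

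**Figure D3:**
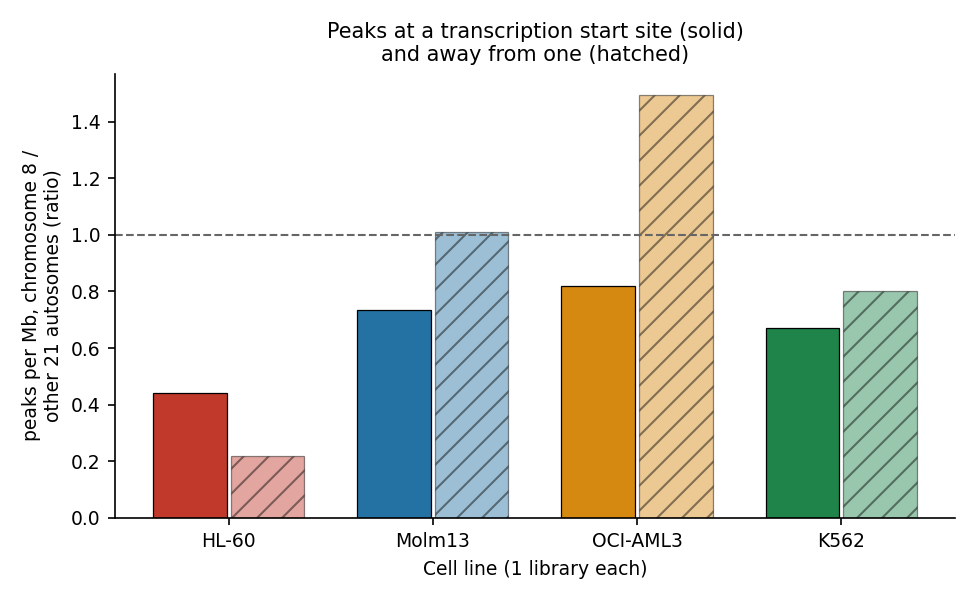
Ratio of peaks per Mb on chromosome 8 to peaks per Mb on the other 21 autosomes (vertical axis) in each line (1 library each), for peaks within 500 bp of a transcription start site (solid bars) and for peaks away from start sites (hatched bars). The dashed line marks equal density. The distal bar is the lower of the pair in HL-60 (0.218 against 0.442) and the higher in the other lines, most of all in OCI-AML3 (1.50 against 0.820).

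The few HL-60 peaks lay where other lines also had peaks. On chromosome 8, 303 of 339 HL-60 peaks (89.4%) overlapped an OCI-AML3 peak by at least 1 bp, 293 (86.4%) a Molm13 peak and 216 (63.7%) a K562 peak, against 63.5, 61.2 and 47.5% elsewhere. Only 35 HL-60 peaks, 10.3% (7.52 to 14.0%), were found in no other line, against 31.5% elsewhere, and 32 of these were distal. In the other direction, 449 Molm13 peaks on chromosome 8 were also present in OCI-AML3 and K562. HL-60 had a peak at 214 of them, 47.7% (43.1 to 52.3%), against 70.8% of such regions elsewhere. At start sites HL-60 had a peak at 190 of 320 (59.4%, against 81.6%), and away from start sites at 24 of 129 (18.6%, against 41.4%).

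The lower recovery in HL-60 held at every strength of the peak in the other line. When the Molm13 peaks of all autosomes were divided into quartiles by fold enrichment, HL-60 had a peak at 1.50, 4.78, 15.5 and 64.1% of those on chromosome 8, from the weakest quartile to the strongest, against 7.14, 13.8, 38.4 and 82.4% on the other autosomes. For OCI-AML3 peaks the shares were 1.95, 4.53, 22.7 and 61.6%, against 9.34, 14.1, 36.2 and 77.0%. For K562 peaks they were 0.692, 4.13, 12.5 and 45.6%, against 6.43, 8.74, 25.9 and 62.6%. None of the 12 chromosome 8 intervals reached the share seen elsewhere.

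Coding promoters showed the same shortage in HL-60, and no such shortage in Molm13. A promoter was called marked when a peak came within 500 bp of the start of any of the gene's protein-coding transcripts, and 686 coding genes of chromosome 8 were examined. In HL-60 208 were marked, 30.3% (27 to 34%), against 43.5% of coding promoters over all chromosomes. In Molm13 365 were marked, 53.2% (49.5 to 56.9%), against 52.7%. In OCI-AML3 it was 368, 53.6% (49.9 to 57.3%), against 56.5%, and in K562 344, 50.1% (46.4 to 53.9%), against 54.8%. Chromosome 8 was the lowest of the 22 autosomes for HL-60, where the next, chromosome 4, had 38.03% marked. Counted from the lowest it ranked 10 for Molm13 and 4 for OCI-AML3 and for K562. On the short arm 23.5% of 281 promoters were marked in HL-60 and on the long arm 35.1% of 405, with 45.6 and 58.5% in Molm13. Short arm genes include copies of the FAM90A, USP17L and beta-defensin families between 7 and 8 Mb, where no line had a peak. Only uniquely mapped reads were used, so a lack of marks at such copies is uncertain.

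Marks were shared among the lines in a few patterns. On chromosome 8, 198 promoters were marked in all 4 lines, or 28.9%, against 39.6% over all chromosomes. A further 110 were marked in Molm13, OCI-AML3 and K562 and not in HL-60, or 16.0%, against 7.05% over all chromosomes. Marks in both Molm13 and OCI-AML3 alone were found at 39 promoters, 5.69%, against 2.65% on the other autosomes. In 284 no line had a mark, 41.4% against 35.9% on the other autosomes. The 284 include the gene copies between 7 and 8 Mb. Promoters marked in a single line were few, with 1 in HL-60 (0.146%, against 0.498% over all chromosomes), 6 in Molm13 (0.875%, against 0.645%), 4 in OCI-AML3 (0.583%, against 1.93%) and 21 in K562 (3.06%, against 4.68%).

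Of the 401 chromosome 8 promoters marked in at least 1 of the other lines, HL-60 kept a peak at 207, or 51.6% (46.7 to 56.5%), against 69.7% elsewhere. Of the 308 marked in all 3 other lines it kept 198, or 64.3% (58.8 to 69.4%), against 85.8% elsewhere. This was the lowest of the 22 autosomes, the next being chromosome 19 with 80.6%. Taken for the other lines in turn, with HL-60 among the 3 compared, it was 198 of 198 for Molm13, 198 of 198 for OCI-AML3 and 198 of 205 for K562. On the other autosomes these shares were 98.4, 99.8 and 94.9%. Such sets hold only promoters with a peak in HL-60, the shortest list, so they are not like the 308 above. The 110 not kept lay on both arms, 39 on the short arm and 71 on the long arm, beside 63 and 135 that were kept.

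As on the other autosomes, the promoters that lacked an HL-60 peak had weaker and narrower peaks in the other lines. Their median fold enrichment was 5.09, 3.26 and 3.42 in Molm13, OCI-AML3 and K562, against 8.16, 4.08 and 3.83 at the 198 kept. On the other autosomes these medians were 4.40, 3.25 and 3.31, against 6.92, 4.26 and 3.77. At the 110 not kept on chromosome 8 the median Molm13 peak width was 1645 bp against 2509 bp, and elsewhere it was 1198 against 2064 bp. The CpG observed to expected ratio within 500 bp of the representative start, a measure of CpG island character, was close in both sets, at a median of 0.844 (middle 50%, 0.740 to 0.885) for those not kept and 0.810 (0.744 to 0.882) for those kept. Divided into quartiles by Molm13 fold enrichment, HL-60 kept 21.5, 55.9, 71.4 and 94.5% on chromosome 8 from weakest to strongest, against 61.6, 88.2, 95.7 and 98.0% elsewhere. By OCI-AML3 strength it kept 37.5, 66.7, 86.6 and 100.0%, against 63.6, 87.3, 94.2 and 97.5% elsewhere, so that chromosome 8 was not lower in the strongest quartile. By K562 strength it kept 45.9, 63.4, 71.6 and 79.7%, against 71.4, 87.8, 91.0 and 92.9%, and was lower in every quartile.

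**Figure D4:**
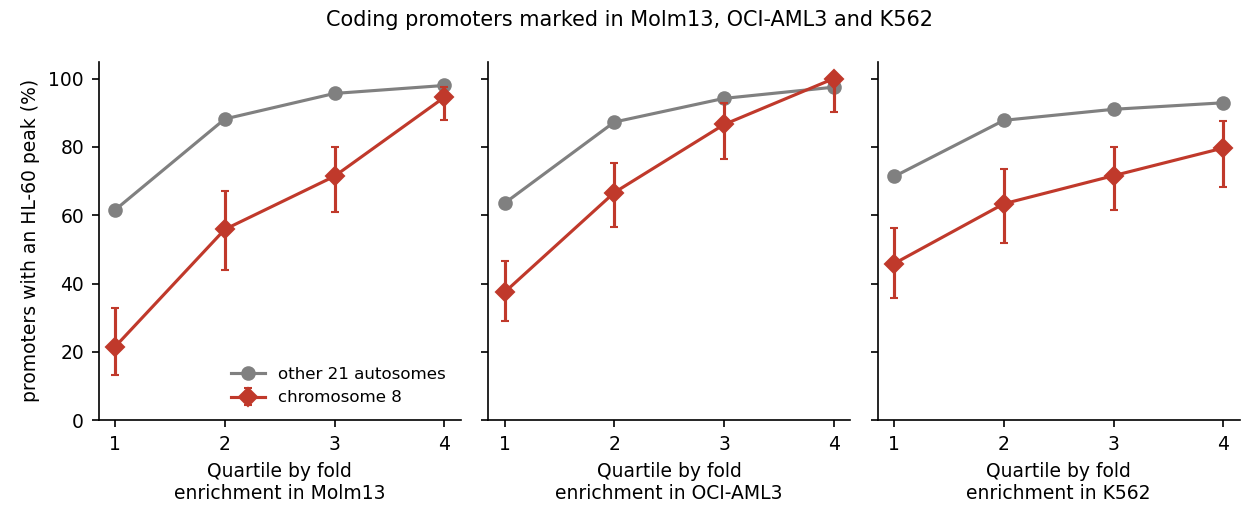
Percentage of coding promoters with an HL-60 peak (vertical axis) among promoters marked in Molm13, OCI-AML3 and K562, by quartile of fold enrichment in each of these lines (horizontal axis, 1 the weakest), for chromosome 8 (red, bars are 95% Wilson intervals) and the other 21 autosomes (grey). Chromosome 8 lies well below the other autosomes in the weakest Molm13 quartile (21.5 against 61.6%) and is close to them in the strongest (94.5 against 98.0%).

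The promoters without an HL-60 peak that were strongest in the line where they were weakest belonged to 10 genes. CLN8, which encodes a membrane protein of the endoplasmic reticulum mutated in a neuronal ceroid lipofuscinosis, lies at 1755778 to 1801711 and had a fold enrichment of 4.86, 4.42 and 4.22 in Molm13, OCI-AML3 and K562. SPIDR, a scaffold for homologous recombination repair at 47260878 to 47736306, had 6.92, 4.06 and 4.57. CTSB, the lysosomal protease cathepsin B at 11842524 to 11869533, had 5.09, 4.20 and 4.01. In each of them the mark was called in every line but HL-60.

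ZNF251, a zinc finger gene of the distal long arm, had 7.71, 4.06 and 4.14 in the same order of lines. NAT1, the arylamine N-acetyltransferase, had 5.71, 4.08 and 3.96 at a promoter poor in CpG (observed to expected ratio 0.173). HOOK3, a microtubule adaptor, and RNF170, a ubiquitin ligase of the endoplasmic reticulum, are divergent neighbours covered by the same peaks, at 6.63, 4.40 and 3.93. FUT10, a fucosyltransferase family gene, had 3.95, 3.83 and 4.14, and COMMD5, of the COMM domain family, had 8.86, 3.81 and 3.76. LETM2, at 8.44, 4.15 and 4.00, was covered by the same peaks as the neighbouring NSD3, whose own promoter had an HL-60 peak of 6.003, so at this pair of genes HL-60 had a mark on the NSD3 side alone.

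At the 198 promoters marked in every line, the strength of the HL-60 peak was also lower on chromosome 8. Its median fold enrichment there was 4.64, against 5.34 at the 7371 such promoters elsewhere and 4.83 on the next lowest autosome. Its median width was 1036 bp against 1390 bp, also the lowest of the 22. Molm13 differed in the other direction, with 8.16 against 6.92 and a width of 2509 bp against 2064 bp, the highest of the 22 for both. OCI-AML3 had a median fold enrichment of 4.08 against 4.26, level with the lowest other autosome, also at 4.08. Its peaks were the widest of the 22, at 2959 bp against 2407 bp. K562 had 3.83 against 3.77. Promoters enter this set only where HL-60 passed its own calling threshold.

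The strongest of the promoters marked in all lines, ranked by the line where each was weakest, was NBN, a subunit of the MRN complex that senses DNA breaks, at 89924515 to 90003228. Its fold enrichment was 5.84 in HL-60 and 15.8, 5.35 and 5.81 in Molm13, OCI-AML3 and K562. RBM12B, an RNA-binding protein gene, had 6.10, 13.0, 5.63 and 5.28. RB1CC1, which encodes the autophagy initiation protein FIP200, had 5.91, 6.77, 4.87 and 4.81. OTUD6B, a deubiquitinase gene, had 4.79, 6.82, 4.83 and 4.84, and INTS9, a subunit of the Integrator complex, had 5.97, 9.87, 4.75 and 4.85. Molm13 had the highest fold enrichment of the 4 lines at each of these 5, on scales that are not comparable in level between libraries.

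Among groups of chromosome 8 genes with a shared role, the promoters of translation genes were marked throughout. All 12 listed genes were marked in all 4 lines. In HL-60 their fold enrichment ran from 3.92 at RPL8, a ribosomal protein gene, to 9.14 at RPL7, another, which was the strongest HL-60 peak on the chromosome. EIF3E, a subunit of the initiation factor that recruits the small ribosomal subunit, had 7.53 in HL-60 and 13.8, 4.82 and 4.61 in Molm13, OCI-AML3 and K562. PABPC1, the poly(A)-binding protein, had 4.96, 9.45, 3.88 and 4.02. The others were RPL30, RPS20, EIF3H, EIF4EBP1, EEF1D, MRPL13, MRPL15 and MRPS28. No member of the group was missing from HL-60. Of all chromosome 8 coding promoters marked in the 3 other lines HL-60 kept 64.3%, and 94.5% of those in the strongest Molm13 quartile.

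Genome maintenance genes were divided. All 17 were marked in Molm13, OCI-AML3 and K562, and 10 of them in HL-60. That was near the 64.3% (58.8 to 69.4%) that HL-60 kept of all chromosome 8 promoters marked in the 3 other lines. The HL-60 marks were at RAD21 (cohesin, 5.26), PRKDC and MCM4, which share a divergent promoter (6.32), NBN (5.84), UBE2V2 (4.87), the helicase gene WRN (4.33), ESCO2 (3.83), the ribonucleotide reductase gene RRM2B (6.81), ATAD2 (6.59) and MTBP (6.87). The 7 without an HL-60 peak were RAD54B, the telomere-binding TERF1, the helicase gene RECQL4, the repair polymerase gene POLB, the glycosylase gene NEIL2, TONSL and DSCC1. In Molm13 these 7 ran from 4.06 at RECQL4 to 5.49 at POLB, whereas 9 of the 10 kept had 6.31 or more, WRN being the exception at 3.97.

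Of 29 genes for transcription factors and chromatin regulators, 9 were marked in HL-60 and 16 in each other line, shares close to the 30.3% and the 50.1 to 53.6% of all coding promoters of the chromosome. The 9 were NSD3 and ASH2L, which encode a histone methyltransferase and a subunit of the MLL-type methyltransferase complexes, NCOA2, PLAG1, ZBTB10, TCEA1, KLF10, TRIB1 and HSF1, at 3.30 (NCOA2) to 6.45 (ASH2L), and all 9 were marked in every line. KAT6A, the MOZ acetyltransferase gene that is a fusion partner in AML, was marked in Molm13 (5.67), OCI-AML3 (3.65) and K562 (4.05) and had no peak in HL-60. The chromatin remodeller gene CHD7 had 5.93, 3.65 and 3.38, E2F5 had 4.11, 3.06 and 3.17, MYBL1 had 7.71, 2.52 and 2.56, and EGR3 had 4.70, 2.68 and 3.47, again with none in HL-60.

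CEBPD, a C/EBP factor of myeloid differentiation, was marked in Molm13 (6.15) and OCI-AML3 (4.53) and in neither HL-60 nor K562, as was ZNF703 (3.08 and 2.65). ZFPM2, which encodes the GATA cofactor FOG2, and TRPS1, a GATA-type repressor gene, were marked in K562 alone (4.54 and 3.84). In 11 genes of the list, among them RUNX1T1, FGFR1, TOX, HEY1, EBF2 and SOX17, no line had a mark. RUNX1T1 encodes ETO, the partner of RUNX1 in a common AML fusion.

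Among 24 genes of immune signalling, death receptors and defensins, 9 were marked in HL-60, 16, 17 and 11 in Molm13, OCI-AML3 and K562. Of all coding promoters of the chromosome, 30.3% were marked in HL-60 and 53.2, 53.6 and 50.1% in those lines. LYN, a SRC family kinase of myeloid and B cells, was marked in all 4, at 3.20 in HL-60 and 6.61, 4.16 and 3.79 in Molm13, OCI-AML3 and K562. So were PTK2B (4.13 in HL-60), the NF-kappaB kinase gene IKBKB (4.76), RIPK2 (4.38) and ST3GAL1 (7.22). The death receptor genes for TRAIL lie side by side on the short arm. TNFRSF10A had 5.01, 5.73, 3.11 and 3.82 and TNFRSF10B had 3.46, 10.5, 4.63 and 4.13, so both were marked in all 4 lines. TNFRSF10C, at 2.90 and 2.27, and TNFRSF10D, at 7.69 and 3.31, which encode decoy receptors, were marked in Molm13 and OCI-AML3 alone.

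DOK2, an adaptor that restrains kinase signalling in haematopoietic cells, was marked in Molm13 (9.001) and OCI-AML3 (4.12) alone, as was PAG1 (2.85 and 4.08). FABP5, a fatty acid binding protein gene, and NDRG1 were marked in the 3 AML lines and not in K562, at 3.61 and 5.31 in HL-60. ANGPT1, PTK2 and TP53INP1 were marked in all lines but HL-60. LY96, which encodes the TLR4 partner MD-2, was marked in OCI-AML3 (2.11) and K562 (2.49). BLK, IL7, FABP4 and the defensin genes DEFA1, DEFA3, DEFA4 and DEFB1 had no mark in any line. DEFA1 and DEFA3 are near-identical copies, and only uniquely mapped reads were used, so their absence is uncertain.

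Red cell genes were marked most often in K562, in a list chosen with these data known. ANK1, the red cell membrane ankyrin, DMTN, which binds actin beneath that membrane, and CA1, the red cell carbonic anhydrase, were marked in K562 alone, at 4.10, 3.42 and 2.68. K562 is an erythroid line by lineage. Of 9 listed genes, 3 were marked in HL-60, 5, 5 and 7 in Molm13, OCI-AML3 and K562. The shares of all coding promoters of the chromosome were 30.3, 53.2, 53.6 and 50.1% in the same order. SLC25A37, which encodes the mitochondrial iron importer mitoferrin, had 5.55 in HL-60 and 5.49, 3.41 and 3.88 in Molm13, OCI-AML3 and K562, and XPO7 had 3.38, 5.39, 4.07 and 4.64. CA2 was marked in the AML lines (3.03, 4.15 and 3.89) and not in K562. BNIP3L, a mitophagy receptor gene, and CA13 were marked in all lines but HL-60, and CA3 in none.

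Of 11 listed zinc finger genes of the long arm, 3 were marked in HL-60, 10, 10 and 11 in Molm13, OCI-AML3 and K562. HL-60 kept 3 of the 10 marked in all 3 other lines, against 64.3% of all such promoters of the chromosome. ZNF7 (3.34), ZNF250 (3.80) and ZNF623 (5.14) had the HL-60 marks, and in Molm13 these had 11.0, 7.04 and 11.2. The 7 marked in all lines but HL-60 were ZNF16, ZNF34, ZNF251, ZNF517, ZNF696, ZNF707 and ZFP41, at 4.64 to 7.71 in Molm13. ZNF572 was marked in K562 alone. It lies apart from the others, at 124973295 to 124979389 and before the stretch left out. Of 11 LY6 family genes of the distal long arm, none was marked in HL-60 and 9 had no mark in any line. LY6E and LY6K were marked in the 3 other lines at 2.39 to 2.75. Over all coding promoters of the chromosome 41.4% had no mark in any line. Of 32 genes whose products belong to other tissues, such as SFTPC of lung, TG of thyroid and CYP7A1 of liver, 31 had no mark in any line. The exception was KCNQ3, a neuronal potassium channel gene, with 3.06 in Molm13 and 2.04 in OCI-AML3.

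The only coding promoter of chromosome 8 marked in HL-60 alone was that of LPL, which encodes lipoprotein lipase, at 4.83. In OCI-AML3 alone the marked promoters were those of ADAMDEC1 (2.60), a protease gene of macrophages and dendritic cells, EXT1 (2.18), SPAG1 (2.04) and HNF4G (2.01). The 5 strongest of the 6 in Molm13 alone were ADAM32 (3.61), TMEM249 (3.44), NPBWR1 (3.42), MTUS1 (2.95) and SH2D4A (2.93). The 5 strongest of the 21 in K562 alone were CHMP4C (5.53), ZFPM2 (4.54), DLC1 (4.34), PHYHIP (4.22) and ANK1 (4.10). At ZFPM2 and ANK1 the K562 peaks were 21232 and 14307 bp wide, beside a median of 2994.5 bp for marked promoters of the chromosome in that line. OCI-AML3 and Molm13 thus marked nearly equal numbers of coding promoters on the chromosome, 368 and 365, while they had 2280 and 1586 peaks.

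The surplus of OCI-AML3 lay mostly in weak peaks. When each list was divided into quartiles by its own fold enrichment, chromosome 8 held 13.2% of the weakest OCI-AML3 quartile (12.5 to 13.9%), 4.51% of the next, 3.56% of the next and 3.04% of the strongest (2.71 to 3.41%). The weakest quartile ran from 1.25 to 2.56 in fold enrichment. Molm13 showed a milder form, with 7.61, 3.34, 3.23 and 3.91%. HL-60 had 0.886, 1.43, 2.45 and 1.77% and K562 3.16, 4.66, 3.89 and 3.42%. In 3 of 4 OCI-AML3 quartiles the share was thus below the 4.77% of the genome that the analysed sequence makes up, whereas HL-60 was below it in all 4.

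**Figure D5:**
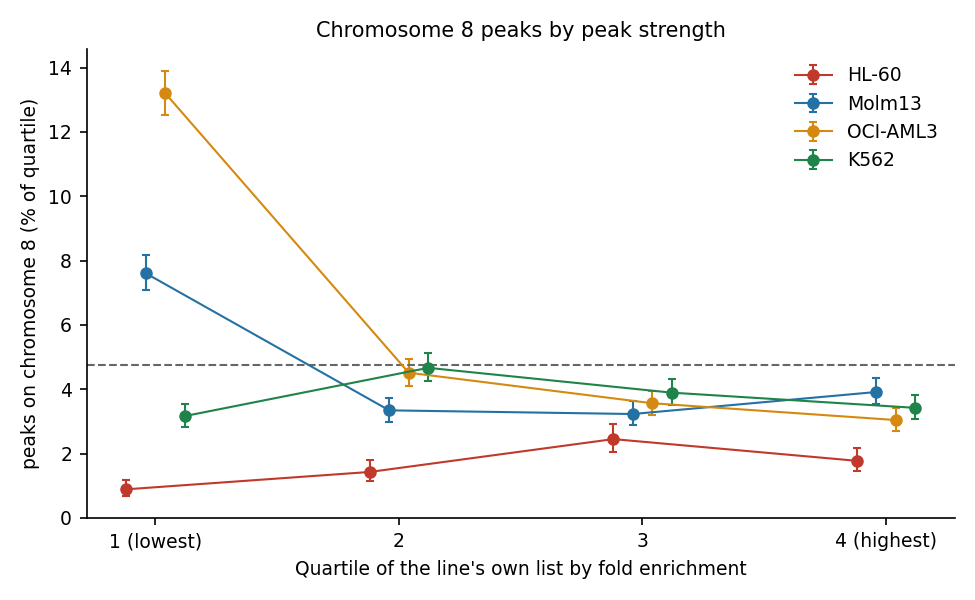
Percentage of peaks that lie on chromosome 8 (vertical axis) in each quartile of a line's own list by fold enrichment (horizontal axis), with 95% Wilson intervals. The dashed line marks the 4.77% of the genome that was analysed on chromosome 8. OCI-AML3 stands at 13.2% in its weakest quartile and falls to 3.04% in its strongest, and HL-60 stays below the dashed line throughout.

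With only peaks of q below 0.001, the OCI-AML3 density of chromosome 8 relative to its genome fell from 1.28 to 1.02 (0.962 to 1.08), and its share was 1.06 times that of Molm13 (0.966 to 1.16), inside the 0.890 to 1.08 of the other autosomes. With the same number of peaks from each list, 20754, the relative density was 1.02 and the ratio to Molm13 1.06, where the other autosomes reached 1.04. With q below 0.001 the HL-60 value was 0.398, again the lowest of the 22 autosomes. The equal length is that of the HL-60 list itself, so its value of 0.343 and its rank could not change on that setting.

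OCI-AML3 peaks found in no other line numbered 1036 of 2280, or 45.4% (43.4 to 47.5%), against 29.1% of its peaks over all chromosomes and the highest of the 22 autosomes. This share depends on the other lists too, and HL-60 had few peaks here. HL-60, Molm13 and K562 overlapped 13.1, 48.6 and 25.5% of the OCI-AML3 peaks on chromosome 8, against 34.9, 63.4 and 41.3% on the other autosomes. Of the 1036 found in no other line, 951 were distal. Their median fold enrichment was 2.38, against 2.86 for chromosome 8 peaks shared with another line, and 12.5% of them had a q-value below 0.001, against 18.4% of such peaks elsewhere. Per megabase there were 7.41 of them, above the 2.38 to 4.95 of the other autosomes. Those with a q-value below 0.001 numbered 0.930 per Mb, also the highest of the 22, where the others had 0.445 to 0.891. With q below 0.001 in all lists the share found in no other line was 29.5%, the second highest of the 22, and with equal list lengths it was 20.7%, again the second highest. OCI-AML3 peaks shared with at least 1 other line numbered 8.90 per Mb, which ranked 11 from the lowest of the 22.

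The bin with the largest OCI-AML3 share ran from 110 to 115 Mb and held 127 OCI-AML3 peaks, 29 Molm13 peaks, 2 HL-60 peaks and 2 K562 peaks. OCI-AML3 made up 79.4% of the bin (72.5 to 84.9%), where the highest of the bins on the other autosomes had 55.7%. Its only coding gene is CSMD3, a large membrane protein gene of the nervous system, whose promoter had no mark in any line. Of the 127 peaks, 105 were found in no other line, 1 was at a TSS, 23 lay within CSMD3, 14 within the noncoding LINC02237, and 84 in no annotated gene. Their median fold enrichment was 2.55, and 19 had a q-value below 0.001. They covered 143.3 kb, against 45.9 kb of Molm13 peaks.

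The strongest peak of the bin, at 111467745 to 111470878 within LINC02237, was also the strongest OCI-AML3 peak of the chromosome (8.68), and Molm13 had a peak of 10.9 there. A wide OCI-AML3 peak at 113886575 to 113897551, in no annotated gene, had 5.73 and was matched in Molm13 at 8.67. Neither HL-60 nor K562 had a peak at either position. The next bins by OCI-AML3 share were 75 to 80 Mb, with 41 OCI-AML3, 10 Molm13, 1 HL-60 and 14 K562 peaks (62.1%), and 80 to 85 Mb, with 81, 51, 9 and 15 (51.9%). The first of these holds HNF4G, ZFHX4, PEX2, IL7 and STMN2 among its 11 coding genes, and the other ZBTB10, PAG1, FABP5, FABP4 and ZFAND1 among 15.

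The 3 strongest peaks of each line had 1 region in common between lines, within PRAG1 in Molm13 and OCI-AML3. In HL-60 they were at RPL7 (73293166 to 73294354, 9.14), at SARAF, a regulator of store-operated calcium entry (30082039 to 30083026, 8.74), and at TTI2, of the TTT complex that stabilises PI3K-related kinases (33513091 to 33513608, 8.25). All 3 were at start sites and marked in every line. In Molm13 they were at ERLIN2 (37736006 to 37739086, 19.1), within PRAG1 and 37457 bp from its nearest start (8343259 to 8348982, 17.1), and at YTHDF3, an m6A reader gene (63167264 to 63169874, 17.1). In OCI-AML3 the strongest after LINC02237 were the same region of PRAG1 (8340800 to 8349061, 6.22) and a noncoding gene 48404 bp from the ZBTB10 start (80434600 to 80437215, 6.04), marked at 5.83 in Molm13 and in neither HL-60 nor K562. In K562 they were at NBN (89981459 to 89985267, 5.81), at ZFAND1 and CHMP4C (81729827 to 81732857, 5.53), and at RNF19A, a ubiquitin ligase gene (100307413 to 100312183, 5.45). No other line had a peak overlapping the K562 peak at CHMP4C, although the ZFAND1 promoter was marked in all 4 lines.

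The dCas9 list of K562 cells with LTR2B guide RNAs placed 14 of 393 peaks on the analysed part of chromosome 8, 3.56% (2.13 to 5.89%). Of these 14, none overlapped an H3K27ac peak of HL-60, 3 overlapped a Molm13 peak, 3 an OCI-AML3 peak and 1 a K562 peak. Of the dCas9 peaks elsewhere 10.8, 19.0, 19.0 and 19.8% overlapped a peak of HL-60, Molm13, OCI-AML3 and K562 in that order. By length, the chromosome held dCas9 peaks at 0.747 times the genome average, with an interval that spans equality. With 14 peaks the interval is too wide to tell a shortage from an equal share.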

How the data were processed

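H3K27ac ChIP-seq was analysed in HL-60, Molm13, OCI-AML3 and K562 (1 library each), with the dCas9 list of K562. Of 19 samples, 14 were not analysed here. Per the labels, the authors trimmed reads with Trim Galore 0.4.5, aligned them to hg38 with Bowtie2 2.3.4 and called broad peaks with MACS2 2.1.1, each library by itself, and the methods state uniquely mapped reads and a q-value limit of 0.05. The control library was not given in the sources used here. The deposited values are fold enrichment (a ratio) and −log10 of the p-value and q-value. The lists reach q-values of 0.0947 to 0.0995, beyond the stated limit, and all listed peaks were used. Read depth is unknown.

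Peaks on chromosomes 1 to 22, X and Y were kept. Peaks were assigned to arms and bins by their midpoint. Overlap meant at least 1 bp. Densities used determined bases of hg38, and genes and start sites came from GENCODE release 44 (702 coding genes on chromosome 8, of which 686 lay outside the stretch left out and had a protein-coding transcript). Python 3.11.15, pandas 2.3.3 and SciPy 1.17.1 were used, and the overlap code was tested on simulated data against bedtools 2.31.1. With 1 library a line no test between lines was run, and members are given as counts beside the other autosomes. Named genes were all list members, the strongest promoters of each pattern (10 for those missing in HL-60, 5 for the rest), and the 3 strongest peaks and leading bins. The members and lists were chosen with earlier results of these data known. Alternatives were q below 0.001, merging within 1 kb, equal list lengths, covered length, TSS windows of 0 bp and 1 kb, other TSS sets, 50% overlap, and bins of 2 and 10 Mb.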

Additional observations from a re-analysis of the deposited data

How the results depend on the processing

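Of 98 alternative values, 52 stayed inside the interval of the reported value (or within 1.5 times a count) and 46 moved outside it. A reversal was defined only for the ratios of the OCI-AML3 share to that of another line, and none of these reversed. The 52 include values of HL-60 alone with equal list lengths, which could not change because its full list sets that length. The relative density of chromosome 8 became 0.398 in HL-60, 1.02 in OCI-AML3 and 0.724 in K562 with q below 0.001, 1.02 in OCI-AML3 and 0.723 in K562 with equal list lengths, and 0.890 in Molm13 and 1.11 in OCI-AML3 by covered base pairs. The long arm share of OCI-AML3 became 68.9% with q below 0.001 and 68.8% with equal list lengths. The ratio of the OCI-AML3 share to that of HL-60 became 2.56 with q below 0.001, 2.97 with equal list lengths and 6.39 for peaks away from a TSS. The ratio to Molm13 became 1.06, 1.06 and 1.45 on these settings and 1.25 by covered base pairs, and the ratio to K562 became 1.41, 1.41, 1.80 and 1.42.

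The share of peaks at a TSS became 50.1% in HL-60 and 26.2%, 21.7% and 28.2% in Molm13, OCI-AML3 and K562 with a window of 0 bp. With 1 kb it was 31.8, 27.02 and 36.0% in Molm13, OCI-AML3 and K562, and with protein-coding starts only 25.03, 20.4 and 27.9%. With q below 0.001 it was 79.4, 46.5, 42.5 and 61.7% in HL-60, Molm13, OCI-AML3 and K562, and with equal list lengths 41.8, 43.3 and 52.2% in the last 3, so that OCI-AML3 was no longer the lowest. The promoters kept in HL-60 became 40.7% of those marked in any other line with a window of 0 bp and 38.8% with q below 0.001, and 55.1 and 50.5% of those marked in all 3 others. On the other autosomes the last of these was 80.1%. The OCI-AML3 peaks in no other line became 57.5% with 50% overlap, 29.5% with q below 0.001 and 20.7% with equal list lengths. The bin with the largest OCI-AML3 share lay from 112 to 114 Mb at 85.9% with 2 Mb bins, and from 110 to 120 Mb at 60.2% with 10 Mb bins. The counts of marked promoters stayed within 1.5 times the reported count on each setting. Stricter lists hold fewer peaks by construction. The cause of the other shifts was not tested.

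No paired analysis was possible because each line had 1 library. The position of the window edge was narrow for a few genes, such as PLEC, marked in HL-60 at 479 bp, and AGO2, missed at 617 bp. Depth, control signal and the number of chromosome copies were not measured, and lines and vectors cannot be told apart.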
